A study of Mus musculus with 8 samples.

Results

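Levels of the genes for the Kv2.2 channel and for electrically silent potassium channel subunits were examined in the hippocampus of mice lacking Kv10.1 and of wildtype mice. The genes were chosen by name rather than by a measured threshold, as every probe set whose platform symbol is 1 of Kcnb2, Kcnf1, Kcng1, Kcng2, Kcng4, Kcns1, Kcns2, Kcns3 and Kcnv1. These 9 genes had 1 probe set each among 20985, of which 19921 have a single gene name. RNA came from 4 male Kv10.1 +/+ wildtype and 4 male Kv10.1 -/- knockout mice, all untreated and 8 weeks old, with 1 array per mouse. The study set out to characterise behaviour and function after loss of Kv10.1, the voltage-gated potassium channel Eag1 encoded by Kcnh1. The sources used here do not give the strain, how the allele was made or whether any mice were littermates. Values are log2 expression levels, so a step of 1 is a factor of 2 in signal, and differences are knockout minus wildtype throughout.

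Kv2 channels are delayed rectifiers that repolarise neurons during repetitive firing, and in hippocampal pyramidal cells they gather in large clusters on the cell body and proximal dendrites, where they hold the plasma membrane against the endoplasmic reticulum. The Kv5, Kv6, Kv8 and Kv9 subunits do not make working channels by themselves. They join Kv2 subunits in mixed tetramers, and in expression systems they change the current size, voltage dependence and kinetics of the channel. Kv10.1 belongs to the EAG family of potassium channels, which is separate from Kv2. A naming trap exists for this family, because the gene table lists Kv10.1a and Kv10.1b as old names of Kcng3, a silent subunit gene. The gene targeted in the knockout mice is Kcnh1.

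No gene of the family differed between the genotypes by the test over all genes. Of the 9 genes, 0 passed an adjusted p of 0.05 in limma, where 0.00477% of all probe sets did, which is Kcnh1 alone. At an unadjusted p under 0.05 the count was 0 of 9 by limma, against 3.16% of all probe sets. The 4 knockout and 4 wildtype values were separate for 0 of 9 genes, against 2.16% of all probe sets. Differences were above 0 for 4 genes and below 0 for 5, where 48.1% and 50.9% of all probe sets lay, with a median of -0.0025, which is also the median over all probe sets. Kcnh1 itself read 9.34 ± 0.131 (SD, n = 4) in wildtype and 8.35 ± 0.0624 (SD, n = 4) in knockout mice, in the direction of the labels (limma adjusted p = 0.00319). With 4 mice per genotype, the standard errors of the 9 differences ran from 0.078 for Kcng1 to 0.20 for Kcnf1.

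The arrays of 2 mice stood apart over all genes, and their values touch several results below. On the first principal component, which held 44.2% of the variance, wildtype 1 scored 32.0 and knockout 1 scored 14.9, against -15.9 to 0.81 for the other 6. Mouse numbers form a lower series (wildtype 1, 2 and 3 and knockout 1) and a higher series (wildtype 4 and knockout 2, 3 and 4), which overlap genotype in large part. Markers of hippocampal principal cells were present on all arrays, with mean levels of the dentate granule cell list from 8.80 to 9.25 and of the CA1 pyramidal list from 9.24 to 9.49. Markers of neighbouring tissue were uneven between mice. The mean of the 6 neocortical markers was 8.76 in wildtype 1 and 8.13 to 8.40 in the other 7 mice, and that of the 7 choroid plexus markers was 8.80 in wildtype 2 and 7.59 to 7.92 elsewhere.

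**Figure D1:**
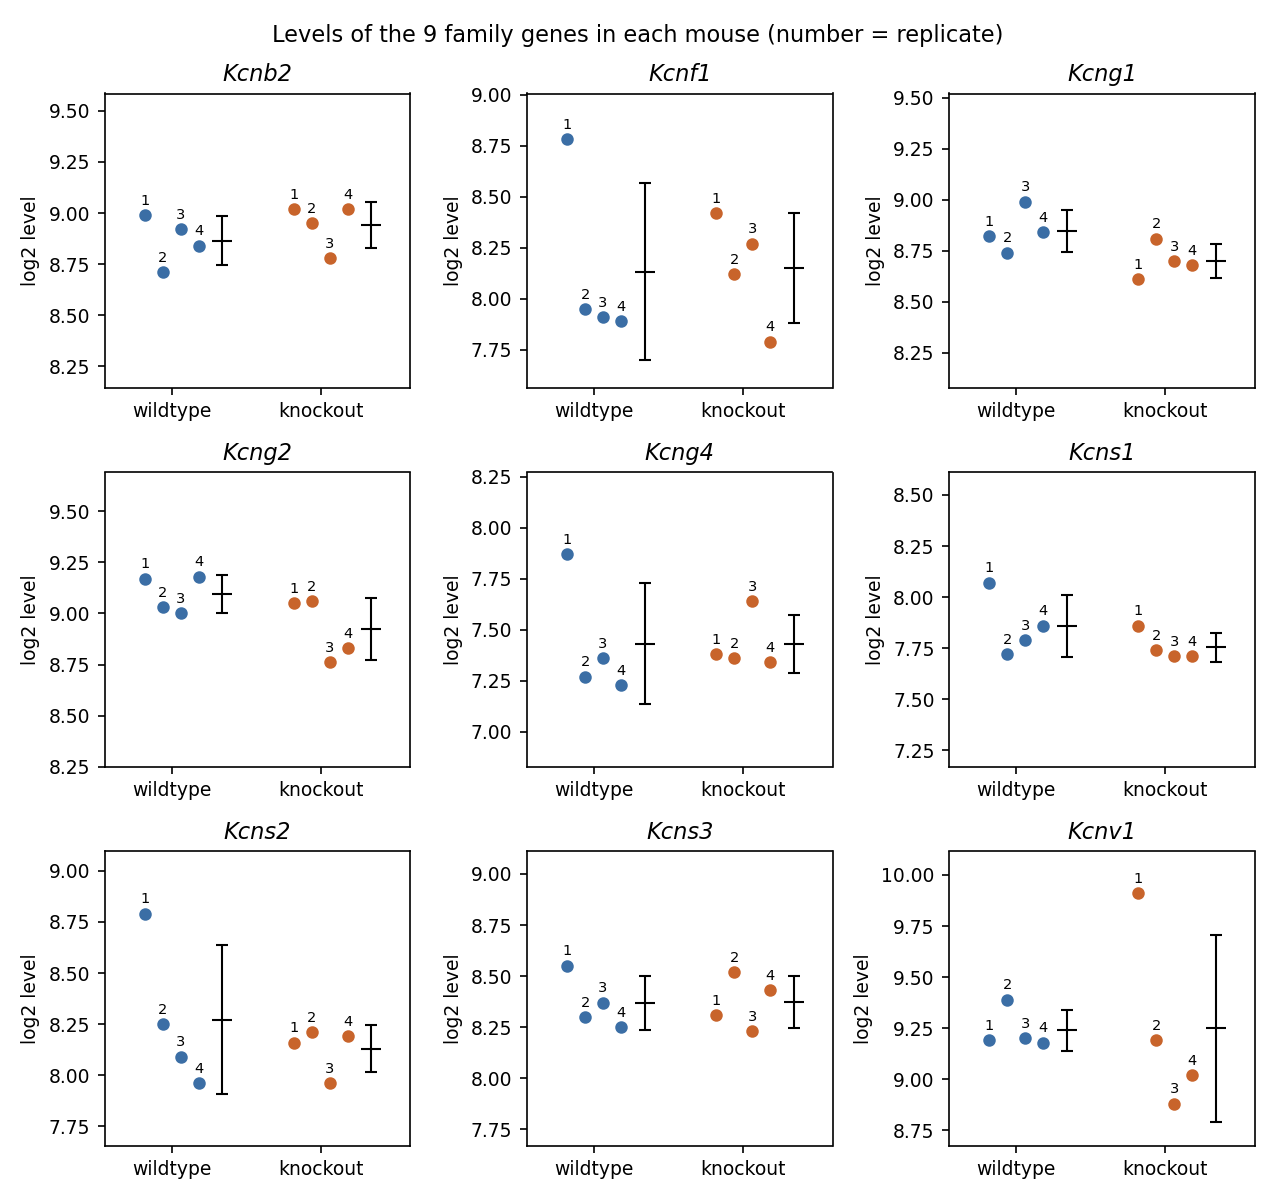
Log2 expression level (y axis) of the 9 family genes in each mouse, by genotype (x axis); points are mice, numbers are replicates, and the black bar with whiskers is the mean ± SD of 4 mice, with every panel spanning the same range of log2 units. Wildtype 1 is the highest mouse for Kcnf1 (8.78), Kcng4 (7.87), Kcns1 (8.07), Kcns2 (8.79) and Kcns3 (8.55), and knockout 1 stands apart for Kcnv1 (9.91).

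The pore-forming member was nearly level between genotypes. Kcnb2, on chromosome 1, encodes Kv2.2, a pore-forming subunit of delayed rectifier channels. It read 8.99, 8.71, 8.92 and 8.84 in wildtype 1 to 4 and 9.02, 8.95, 8.78 and 9.02 in knockout 1 to 4. The groups overlapped widely, with wildtype 2 and knockout 3 lowest. Means were 8.87 ± 0.120 and 8.94 ± 0.113 (SD, n = 4 each) in wildtype and knockout mice. The difference was 0.078 ± 0.086 (SE), with a 95% interval from -0.11 to 0.27, or 0.924 to 1.20 times the wildtype level (limma adjusted p = 0.997). Its sign was the same in the lower series of mouse numbers (0.15) and the higher (0.077). The lower series has knockout 1 as its only knockout, and the higher has wildtype 4 as its only wildtype mouse.

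The Kv6 genes Kcng1 and Kcng2 had the lowest differences of the family. Kcng1 encodes Kv6.1 and lies on chromosome 2. Its levels were 8.82, 8.74, 8.99 and 8.84 in wildtype 1 to 4 and 8.61, 8.81, 8.70 and 8.68 in knockout 1 to 4. Knockout 2 alone among the knockouts reached into the wildtype range, above wildtype 2. The difference was -0.15 ± 0.078 (SE), with a 95% interval from -0.32 to 0.025 (limma adjusted p = 0.997). By exact permutation of the 8 mice, two-sided, p was 0.0571, where the smallest possible over 35 splits is 0.0286. The difference was -0.24 within the lower series, with knockout 1 as its only knockout. It was -0.11 within the higher, with wildtype 4 as its only wildtype mouse, and -0.18 with the series as a block.

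Kcng2 encodes Kv6.2 and lies on chromosome 18. Levels of 9.17, 9.03, 9.0 and 9.18 were read in wildtype 1 to 4 and of 9.05, 9.06, 8.76 and 8.83 in knockout 1 to 4. Knockout 3 and 4 lay below every other mouse, while knockout 1 and 2 lay within the wildtype range. The difference was -0.17 ± 0.090 (SE), with a 95% interval from -0.37 to 0.029 (limma adjusted p = 0.997; exact two-sided permutation p = 0.171). Within the lower series it was -0.017 and within the higher -0.30, where 3 knockouts are set against wildtype 4 alone.

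Kcng4 encodes Kv6.4 and lies on chromosome 8. In wildtype 1 to 4 it read 7.87, 7.27, 7.36 and 7.23, and in knockout 1 to 4 it read 7.38, 7.36, 7.64 and 7.34. Wildtype 1 and knockout 3 stood above the remaining 6 mice, which lay within 7.23 to 7.38. Means were 7.43 ± 0.297 in wildtype and 7.43 ± 0.141 in knockout mice (SD, n = 4 each). The difference of -0.0025 (95% interval -0.31 to 0.30; limma adjusted p = 0.998) became 0.14 without wildtype 1. Knockout 3 also carried the highest mean of the 6 thalamic markers, 8.11 against 7.56 to 7.83 in the other mice, with 3 of the 6 highest there. Most of that gap came from Zic1 (9.41 against 7.51 to 8.21) and Prkcd (9.72 against 8.47 to 9.18), while Tcf7l2, Lef1 and Ramp3 lay within the range of the other mice. The mean of the 9 interneuron markers was also highest in knockout 3, 9.41 against 9.09 to 9.25, with 3 of the 9 highest there. So were the means of the 5 CA1 pyramidal markers, 9.49 against 9.24 to 9.44, and of the 3 striatal markers, 8.33 against 8.00 to 8.24. Whether any of these signals has a part in the Kcng4 level was not tested.

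**Figure D2:**
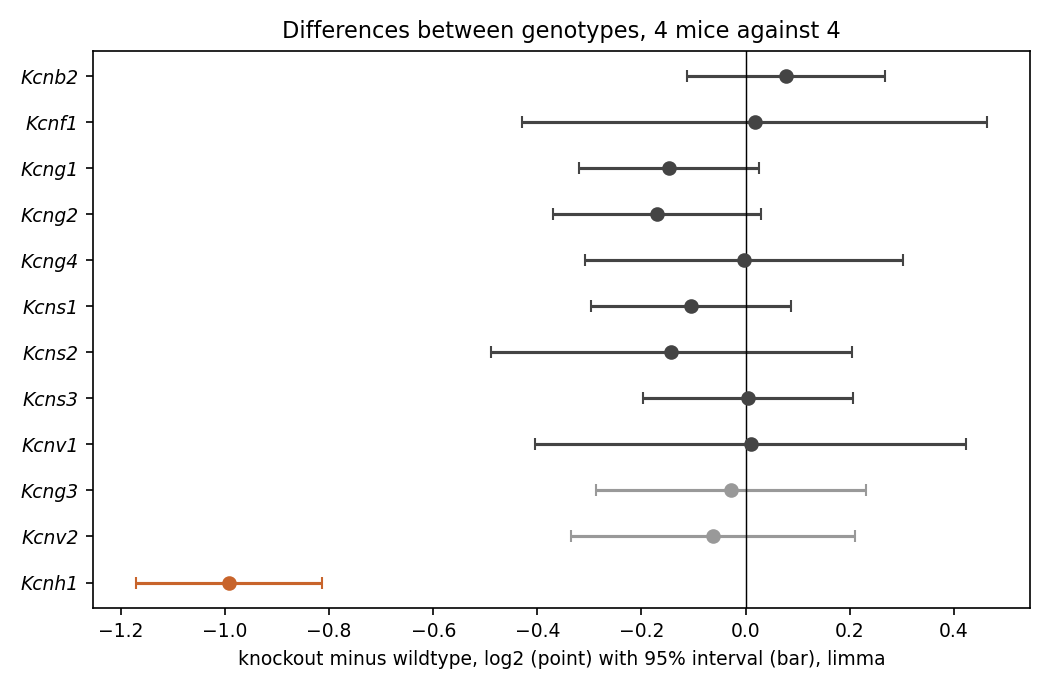
Difference in log2 level between knockout and wildtype mice (x axis; points are limma estimates from 4 against 4 mice, bars are 95% intervals) for the 9 family genes, the relatives Kcng3 and Kcnv2 in grey and the targeted gene Kcnh1. All family intervals cover 0, from the narrowest at Kcng1 (-0.32 to 0.025) to the widest at Kcnf1 (-0.43 to 0.46), while that of Kcnh1 runs from -1.17 to -0.81.

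The Kv5 gene had the highest pooled SD within genotypes of the family. Kcnf1, on chromosome 12, encodes Kv5.1, the single member of its subfamily. It read 8.78, 7.95, 7.91 and 7.89 in wildtype 1 to 4 and 8.42, 8.12, 8.27 and 7.79 in knockout 1 to 4. Wildtype 1 stood far above the other wildtype mice, and knockout 4 was the lowest of all. The difference was 0.018 ± 0.20 (SE), with a 95% interval from -0.43 to 0.46 (limma adjusted p = 0.997). Without wildtype 1 it was 0.23. This interval, the widest of the 9 from end to end, covers changes of up to 1.35-fold down and 1.38-fold up. With the series as a block the difference was 0.19.

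All 3 Kv9 genes were highest in wildtype 1. Kcns1, on chromosome 2, encodes Kv9.1, whose human counterpart has been studied in relation to pain. It read 8.07, 7.72, 7.79 and 7.86 in wildtype 1 to 4 and 7.86, 7.74, 7.71 and 7.71 in knockout 1 to 4. Apart from wildtype 1, the mice lay within 7.71 to 7.86, and the groups overlapped. The difference was -0.11 ± 0.087 (SE; 95% interval -0.30 to 0.087; limma adjusted p = 0.997), or -0.035 without wildtype 1.

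Kcns2, on chromosome 15, encodes Kv9.2. Levels of 8.79, 8.25, 8.09 and 7.96 were read in wildtype 1 to 4 and of 8.16, 8.21, 7.96 and 8.19 in knockout 1 to 4. The knockouts all lay within the range of wildtype 2, 3 and 4, and wildtype 1 stood above every other mouse. The difference was -0.14 ± 0.16 (SE; 95% interval -0.49 to 0.20; limma adjusted p = 0.997), and it turned to 0.030 without wildtype 1. With the series as a block it was -0.028.

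Kcns3, on chromosome 12, encodes Kv9.3, which in human prefrontal cortex is found in parvalbumin interneurons. It read 8.55, 8.30, 8.37 and 8.25 in wildtype 1 to 4 and 8.31, 8.52, 8.23 and 8.43 in knockout 1 to 4. Wildtype 1 and knockout 2 were the highest mice, 1 from each genotype. The means were 8.37 ± 0.131 and 8.37 ± 0.128 (SD, n = 4 each), a difference of 0.0050 (limma adjusted p = 0.997) whose 95% interval ran from -0.20 to 0.21.

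The Kv8 gene was even between genotypes on average but not between knockouts. Kcnv1, on chromosome 15, encodes Kv8.1, a brain subunit that strongly reduces Kv2 current when expressed together with Kv2 subunits. Wildtype 1 to 4 read 9.19, 9.39, 9.20 and 9.18, and knockout 1 to 4 read 9.91, 9.19, 8.88 and 9.02. Knockout 1 was above every other mouse and knockout 3 and 4 were below every wildtype mouse, so the knockouts spanned both sides of the wildtype range. The SD was 0.458 in knockouts and 0.100 in wildtype mice (n = 4 each). The difference was 0.010 ± 0.19 (SE; 95% interval -0.40 to 0.42; limma adjusted p = 0.997), and -0.21 without knockout 1. It was 0.65 within the lower series, which holds knockout 1, and -0.15 within the higher, and 0.25 with the series as a block. In knockout 1 the mean of the 6 dentate granule cell markers was also the lowest of the 8 mice, 8.80 against 8.88 to 9.25. Knockout 2 had the next lowest, 8.88, and read 9.19 for Kcnv1. The mean of the 5 microglia markers was highest in knockout 1, 8.36 against 8.13 to 8.35. That of the 5 astrocyte markers was highest there too, tied with wildtype 1 at 10.47. Whether the cell makeup of knockout 1 has a part in the Kcnv1 level was not tested. In tissue RNA, more RNA per cell and more cells of a type cannot be told apart, which holds for each level given here.

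The remaining measured relatives gave similar results. Kcng3, which encodes Kv6.3, read from 8.68 to 9.17 in wildtype and from 8.71 to 9.11 in knockout mice, with a difference of -0.028 ± 0.12 (SE; limma adjusted p = 0.997). Kcnv2, which encodes the photoreceptor subunit Kv8.2, read from 6.71 to 7.16 in wildtype and from 6.52 to 6.98 in knockout mice, with a difference of -0.063 ± 0.12 (SE; limma adjusted p = 0.997), or -0.26 with the series as a block. Levels of different probe sets are not on a common scale, so the genes were not ranked against each other. As a guide to background, the 125 probe sets of Vmn1r genes, vomeronasal receptors of sensory neurons in the nose, had mean levels with a median of 5.60 and a 95th percentile of 6.36. All 8 values lay above that percentile for 9 of 9 family genes. Kcnv2 met this too, with a lowest value of 6.52. The median level of each array, 7.50 to 7.55, was also above the percentile. The share of all probe sets above it was not computed, so the count alone does not show that the genes are expressed. A single receptor, Vmn1r90, averaged 8.59, and 4 of 9 family genes (Kcnb2, Kcng1, Kcng2 and Kcnv1) lay above it in every mouse.

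A set of 4 genes varied more between mice than most probe sets, and the other 5 did not. The SD within genotypes, pooled over both, was 0.360 for Kcnf1, 0.331 for Kcnv1, 0.271 for Kcns2 and 0.232 for Kcng4. These place at the percentiles 97.8, 96.8, 93.1 and 88.1 of all probe sets. The other 5 ran from 0.0942 for Kcng1 to 0.130 for Kcns3, at the percentiles 23.5 to 48.3, and the median of all probe sets was 0.132. Among the 4 the mouse farthest from the others was wildtype 1 for Kcnf1, Kcns2 and Kcng4 and knockout 1 for Kcnv1.

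Wildtype 1 was the highest mouse for 5 of 9 genes, Kcnf1, Kcng4, Kcns1, Kcns2 and Kcns3, and it was the highest for 22.3% of all probe sets. Averaged over the 9 genes, it lay 0.26 above the mean of the 8 mice. Knockout 1 lay 0.093 above that mean, and the other 6 mice lay between -0.11 and 0.0085 from it. In the same mouse the neocortical marker Lamp5 read 10.38 against 8.94 to 9.53 in the others, and 4 of the 6 neocortical markers were highest or tied for highest there. The mean of the 5 oligodendrocyte markers was also highest in wildtype 1, 9.98 against 9.56 to 9.90, as was that of the 4 endothelial markers, 8.62 against 8.33 to 8.51. The 9 interneuron markers together were not, with a mean 0.010 above that of the 8 mice, although Pvalb, the parvalbumin gene, read 8.85 against 7.60 to 7.86. The spread of levels over the whole array was also widest in wildtype 1, with an interquartile range of 2.42. That range was 2.30 in knockout 1 and 2.09 to 2.21 in the other 6 mice. Whether the spread of the array or any of these tissues or cells has a part in the levels of the 5 genes was not tested.

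**Figure D3:**
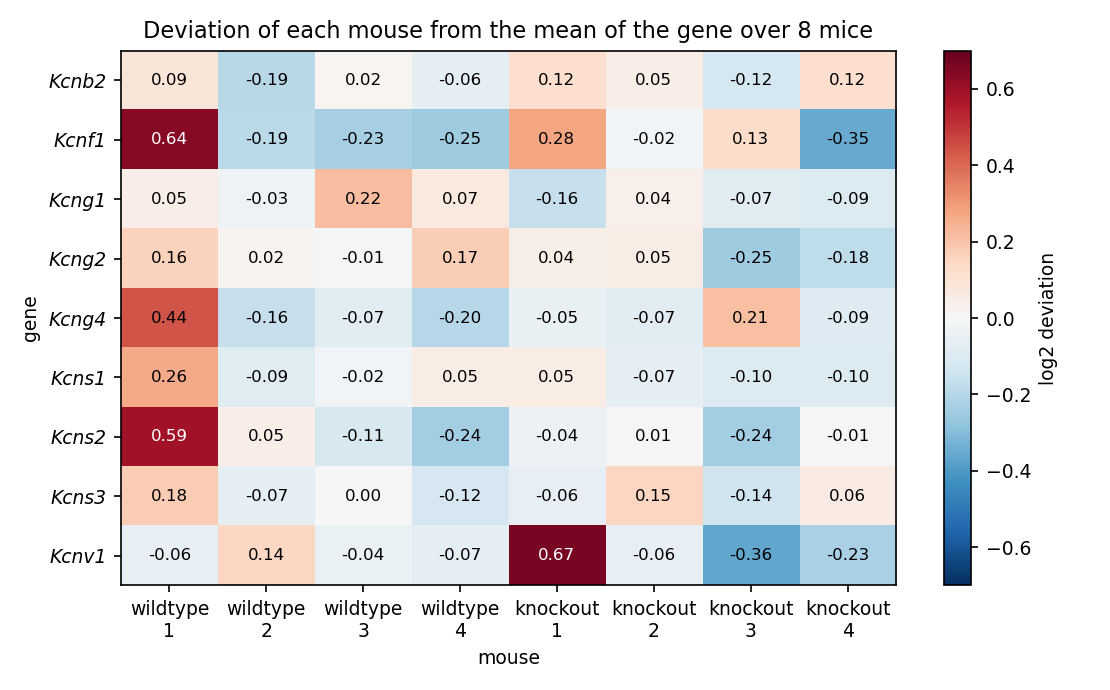
Deviation of each mouse (columns) from the mean over 8 mice of each family gene (rows), in log2 units by colour and number. The column of wildtype 1 holds the largest positive deviations of Kcnf1 (0.64), Kcns2 (0.59) and Kcng4 (0.44), and knockout 1 holds that of Kcnv1 (0.67).

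Pairs of family genes were compared across the 8 mice, and 0 of 36 pairs passed after Benjamini-Hochberg adjustment, by Pearson or by Spearman correlation. The exact permutation test over all 40320 pairings gave an unadjusted p under 0.05 for 4 pairs by Pearson and 3 by Spearman. Kcnf1 and Kcng4 had the highest r, 0.845 (exact permutation p = 0.0144, adjusted p = 0.259), with rho = 0.838 (exact permutation p = 0.0127, adjusted p = 0.325). For this pair r was 0.786 without wildtype 1 and knockout 1, the mice farthest from the median of Kcnf1, and 0.577 without wildtype 1 alone. Kcns2 and Kcns3 had r = 0.765 (exact permutation p = 0.00709, adjusted p = 0.255), with rho = 0.731 (exact permutation p = 0.0485, adjusted p = 0.582) and r = 0.554 without wildtype 1 and wildtype 4. Wildtype 1 was the highest mouse for all 4 of these genes.

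Kcng2 and Kcns1 had r = 0.705 (exact permutation p = 0.0495, adjusted p = 0.446), with rho = 0.819 (exact permutation p = 0.0181, adjusted p = 0.325) and r = 0.714 without knockout 3 and 4. Kcnf1 and Kcns1 had r = 0.741 (exact permutation p = 0.0370, adjusted p = 0.444), with rho = 0.434 (exact permutation p = 0.285, adjusted p = 0.869), and r was -0.335 without wildtype 1 and knockout 1, so this relation rests on those mice. The median r of the 36 pairs was 0.292 with all mice and 0.0196 without wildtype 1. Each series of mouse numbers holds 4 mice, too few for a correlation within it.

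Promoter sequences are shown for Kcnf1, Kcng4, Kcns1 and Kcns3, which share their highest mouse and have sequences in the RefSeq promoter table of build GRCm38.p6, in which 4 of the 9 genes were found. Each runs from 250 bases before to 50 bases after the annotated start, 5′ to 3′, at chr12:17176839-17177138 for Kcnf1, chr8:119635631-119635930 for Kcng4 and chr2:164171064-164171363 for Kcns1. Kcns3 has 2 annotated starts, with windows at chr12:11150793-11151092 and chr12:11150324-11150623. All lie on the minus strand. Capitals mark matches to the motifs, searched on both strands. One motif was TATAAA, the usual letters of a TATA box. The promoter element bound by NF-Y was searched as CCAAT, and the GC box bound by Sp1 as GGGCGG. An E box was searched as CACGTG, and the core of a cyclic AMP response element as TGACG. No matches overlapped.
Kcnf1: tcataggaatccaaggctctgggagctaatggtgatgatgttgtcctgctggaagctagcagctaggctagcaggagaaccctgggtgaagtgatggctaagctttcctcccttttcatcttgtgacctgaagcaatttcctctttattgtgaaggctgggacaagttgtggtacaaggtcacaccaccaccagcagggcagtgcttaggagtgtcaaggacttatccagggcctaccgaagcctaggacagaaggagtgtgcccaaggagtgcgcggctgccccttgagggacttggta
Kcng4: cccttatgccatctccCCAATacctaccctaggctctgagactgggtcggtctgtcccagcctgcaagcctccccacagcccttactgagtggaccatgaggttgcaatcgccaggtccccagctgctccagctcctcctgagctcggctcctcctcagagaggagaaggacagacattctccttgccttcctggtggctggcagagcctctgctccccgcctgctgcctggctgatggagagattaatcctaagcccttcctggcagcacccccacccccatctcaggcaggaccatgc
Kcns1: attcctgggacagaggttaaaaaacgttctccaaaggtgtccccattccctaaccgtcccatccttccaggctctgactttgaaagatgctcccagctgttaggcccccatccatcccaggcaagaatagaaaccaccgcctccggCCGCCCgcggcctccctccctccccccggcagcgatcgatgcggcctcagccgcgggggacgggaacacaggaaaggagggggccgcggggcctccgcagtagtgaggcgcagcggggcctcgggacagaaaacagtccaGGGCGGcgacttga
Kcns3, first window: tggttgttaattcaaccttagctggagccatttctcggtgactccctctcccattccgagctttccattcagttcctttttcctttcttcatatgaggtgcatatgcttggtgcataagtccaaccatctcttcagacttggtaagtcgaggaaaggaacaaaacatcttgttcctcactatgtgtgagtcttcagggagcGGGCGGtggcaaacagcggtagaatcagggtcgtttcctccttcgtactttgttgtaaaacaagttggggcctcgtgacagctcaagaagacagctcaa
Kcns3, second window: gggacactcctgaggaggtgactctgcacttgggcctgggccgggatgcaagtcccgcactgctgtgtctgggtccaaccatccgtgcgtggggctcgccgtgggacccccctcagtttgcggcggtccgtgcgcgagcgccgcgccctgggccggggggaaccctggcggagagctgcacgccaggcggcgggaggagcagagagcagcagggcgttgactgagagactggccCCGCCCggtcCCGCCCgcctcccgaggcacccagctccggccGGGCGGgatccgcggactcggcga
The window of Kcnf1 held none of these letters, that of Kcng4 held 1 CCAAT, and that of Kcns1 held 2 GC boxes. The windows of Kcns3 held 1 and 3 GC boxes. Among the 32851 windows of the table, 37.4% hold CCAAT and 35.7% hold a GC box. The windows differed in CG dinucleotides, with 3 in Kcnf1, 4 in Kcng4, 22 in Kcns1 and 9 and 32 in those of Kcns3, against a median of 7. The GC box was thus found for Kcns1 and Kcns3, and none of the 5 motifs was found for all 4 genes.

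Genes of other kinds followed the members' profiles across the 8 mice. For each member the 2 most similar were taken by Pearson r from 10035 probe sets with a name and an above-median level, and since they were picked as the highest, no p is given. They were Stxbp3 (r = 0.943) and Bend6 (0.940) for Kcnb2, Bach1 (0.977) and Plekhh1 (0.974) for Kcnf1, and Eogt (0.956) and Recql5 (0.888) for Kcng1. For Kcng2 they were Uck1 (0.973) and Chrna7 (0.960), the gene of the α7 nicotinic acetylcholine receptor. Kcns1 was most like Neurl1b (0.986) and Cbx7 (0.986), Kcns2 like Fkbp9 (0.994) and Eef1b2 (0.987), and Kcns3 like Rab9b (0.974) and Mat2b (0.925). Spearman rho for these 14 pairs ran from 0.881 to 0.988, and without the 2 mice farthest from the member's median r ran from 0.897 to 0.982. Both come from the same mice that picked the pairs, so they are not separate support. How high r would run for unrelated profiles after such a choice was not computed.

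For Kcng4 and Kcnv1 the likeness was weaker without the farthest mice. Kcng4 was most like Sema3f (r = 0.977) and Kcnip1 (0.959), the gene of an auxiliary subunit of Kv4 channels, but r fell to 0.704 and 0.556 without wildtype 1 and knockout 3. Kcnv1 was most like AU040320 (0.970) and Kifbp (0.963), with r of 0.782 and 0.657 without knockout 1 and 3. No other family member was among these most similar genes. Kcng4 could not be, because its level is below the median probe set and it was not a candidate. With 2 genes taken per member from 10035 candidates, the absence says little about the family.

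Genes whose products bind, anchor or modify Kv2 channels were also compared. Of the 26 listed, 23 were measured and 0 passed the test over all genes by limma. Differences were above 0 for 7 and below 0 for 16, where 48.1% and 50.9% of all probe sets lay. Their median was -0.060 against -0.0025 over all probe sets, and no test of the list as a whole was made. At an unadjusted p under 0.05 there were 2 by limma, where 3.16% of all probe sets stood. Pitpnm2, a phosphatidylinositol transfer protein of contacts between endoplasmic reticulum and plasma membrane, read 10.17 ± 0.182 in wildtype and 9.86 ± 0.0898 in knockout mice (SD, n = 4 each), a difference of -0.31 ± 0.097 (SE; limma adjusted p = 0.997). It was the single partner gene whose groups did not overlap, with 9.97 to 10.40 in wildtype and 9.73 to 9.92 in knockout mice, against 2.16% of all probe sets. Without wildtype 1, its highest mouse, the Pitpnm2 difference was -0.23.

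Ppp3cb, a catalytic subunit of the phosphatase calcineurin, which acts on Kv2 channels, differed by 0.22 ± 0.084 (SE; limma adjusted p = 0.997). The calcineurin regulatory subunit gene Ppp3r1 differed by 0.12 ± 0.072, and C2cd2l, a lipid transfer protein gene of the same membrane contacts, by -0.18 ± 0.093 (SE; limma adjusted p = 0.997 for both). Without wildtype 1 the differences were -0.099 for C2cd2l, 0.27 for Ppp3cb and 0.11 for Ppp3r1. Amigo1, the auxiliary subunit of Kv2 channels, differed by -0.098 ± 0.089 (SE). The tethering proteins Vapa and Vapb, which bind Kv2 from the endoplasmic reticulum, gave 0.078 ± 0.086 and 0.010 ± 0.18 (SE). Amigo1, Vapa and Vapb were named for their roles after their values were seen.

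**Figure D4:**
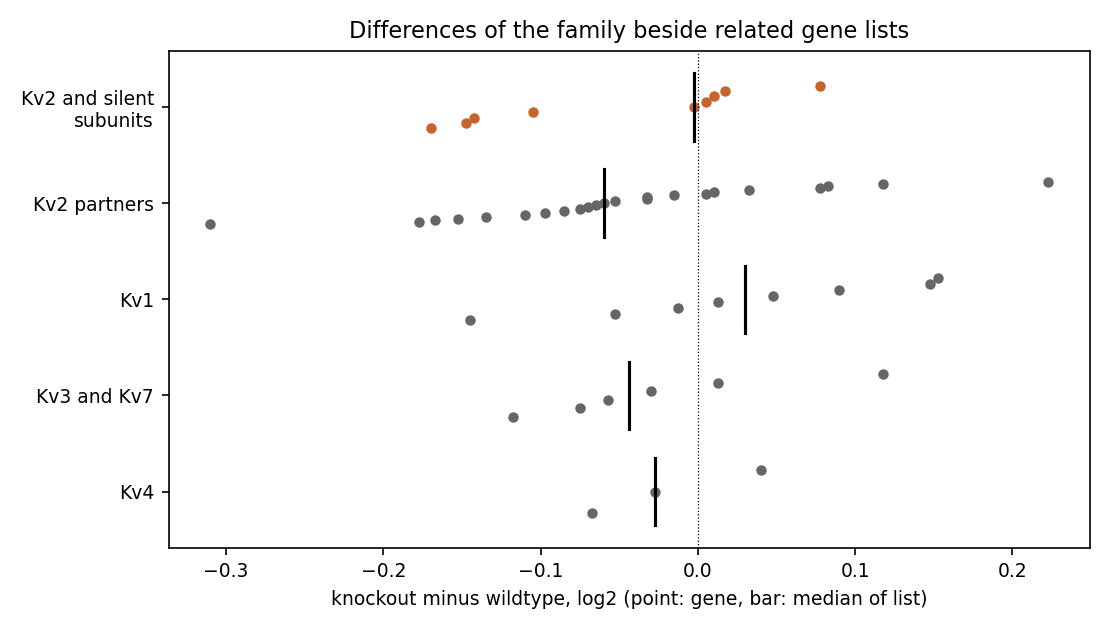
Difference in log2 level between knockout and wildtype mice (x axis) for each gene (points) of the family and of 4 related lists (rows), with black bars at the list medians. The family spans -0.17 to 0.078, within the span of the Kv2 partners (-0.31 to 0.22).

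Other voltage-gated potassium channel subfamilies gave the same count. Of 8 Kv1, 6 Kv3 and Kv7, and 3 Kv4 genes measured, 0 passed over all genes or reached an unadjusted p under 0.05 by limma. Their median differences were 0.030, -0.044 and -0.028, against -0.0025 for the Kv2 and silent subunit genes. The members with the smallest p were Kcna7 (0.15 ± 0.10), Kcnq3 (-0.12 ± 0.071) and Kcnd3 (-0.068 ± 0.078; SE, limma adjusted p = 0.997 for each). Median pooled SDs were 0.163 for Kv1, 0.124 for Kv3 and Kv7 and 0.115 for Kv4, beside 0.130 for the family, and no test of a difference between these lists was made.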

How the data were processed

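Total RNA from the hippocampus of 8 mice was measured on Affymetrix arrays, with biotin-labelled DNA made from 100 ng, per the labels' protocols. The values the authors deposited are on a log2 scale, 1 for each probe set on each array. The submitters' processing notes name R 2.9, limma and RMA; their settings were not found in the labels. Array number limits the precision, and detection calls were not used.

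Genotype was taken from the titles. Replicates were numbered in record order, so the numbers pair no mice. Titles give a number for each mouse, so replicates are separate animals. All 20985 probe sets entered a two-sided fit by lmFit and eBayes of limma 3.58.1 (R 4.3.3), with genotype as the factor and Benjamini-Hochberg adjustment over all of them. Single genes also had an exact permutation test. The fit and the correlation code were tested on simulated data.

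The text names the 9 genes, Kcnh1, the relatives Kcng3 and Kcnv2, the 4 partner genes and 1 gene of each other channel list with the smallest p, and the 2 most similar genes per member. Single marker genes (Lamp5, Pvalb, Zic1, Prkcd, Tcf7l2, Lef1, Ramp3), Vmn1r90, Amigo1, Vapa and Vapb were named after their values were seen. The members follow from their names, but they, the lists and the rules were chosen with earlier results of these data known. Alternatives covered the prior, array weights, normalization, dim probe sets, mouse series, the first principal component and left-out mice. Chromosomes and promoters come from RefSeq tables of GRCm38.p6. The sources used here name no build for the arrays.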

Additional observations from a re-analysis of the deposited data

Results flagged for a closer look

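In 3 of the 18 groups of 4 mice formed by the 9 genes and both genotypes, 1 mouse lay far from the other 3, as judged by its gap as a share of the group's range against Dixon's critical value. Chance gives such a result in about 1 of 20 groups, and over all probe sets 6.33% of groups met the criterion. Kcnf1 read 8.78 in wildtype 1, while wildtype 2, 3 and 4 read 7.89 to 7.95. Kcng4 read 7.64 in knockout 3, while knockout 1, 2 and 4 read 7.34 to 7.38. Kcnv1 read 9.39 in wildtype 2, while wildtype 1, 3 and 4 read 9.18 to 9.20. Wildtype 2 is the mouse with the high choroid plexus markers, whose part in the level was not tested. The 9.91 of Kcnv1 in knockout 1 did not meet the criterion, since the other 3 knockouts ran from 8.88 to 9.19.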

How the results depend on the processing

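No paired analysis was possible because the replicate numbers follow only the order of the records. Under all 18 alternatives, 0 of the family genes and 0 of the Kv2 partners passed the threshold, and the lowest limma adjusted p of a member was 0.806. The count of correlated pairs was also 0 under its 12 alternatives. The median difference of the family ran from -0.12 to 0.030 over single left-out mice and was 0.023 in the fit blocked by mouse number series. That block moved Kcnv1 to 0.25, Kcnf1 to 0.19, Kcns2 to -0.028 and Kcnv2 to -0.26. Kcnb2, Kcng1, Kcng2 and Kcns1 kept their sign under all 18 alternatives. Kcng4 is below the median probe set and drops out when the dimmest 50% are removed. The other members have differences near 0 or resting on 1 mouse. Kcng4 turned positive with array weights (0.064), repeated quantile normalization (0.040), median centring (0.015), the series block (0.048), the first principal component in the fit (0.051) and without wildtype 1 and knockout 1 together (0.16). Without that pair Kcns2 was 0.020 and Kcnv1 -0.23, and Kcnv1 was -0.041 with array weights. Kcng3 turned to 0.0059 with repeated quantile normalization and to 0.042 with the series block. Leaving out single mice gave ranges of -0.073 to 0.23 for Kcnf1, -0.073 to 0.14 for Kcng4, -0.25 to 0.030 for Kcns2, -0.044 to 0.066 for Kcns3, -0.21 to 0.13 for Kcnv1, -0.11 to 0.063 for Kcng3 and -0.12 to 0.037 for Kcnv2. Apart from what leaving out a named mouse shows, the cause of these changes was not tested.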
